A study of Rattus norvegicus with 4 samples.

Results

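The genes described here are a chosen set of 40 whose products fold, import, degrade or sense proteins in the endoplasmic reticulum (ER). They were picked by symbol or older alias for their role in the ER. Earlier results of these data were known when they were picked. By gene symbol, 38 of the 40 had a probe, 43 probes among the 30367 gene probes and 38 genes among the 26514 genes and transcripts of the array, while Edem1 and Derl2, both of ER-associated degradation, were not measured here. They fall into 4 classes by role: 19 folding genes, 3 import genes, 7 degradation genes of which 5 were measured, and 11 stress signalling genes.

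Male Sprague-Dawley rats were fed an iron-deficient diet (FeD, 5 ppm iron), an iron-adequate diet (FeA, 35 ppm) or an iron-overloaded diet (FeO, 20275 ppm) for 3 weeks. Whole-pancreas RNA of 6 rats was pooled for each diet, and each of the FeD and FeO pools was set against the FeA pool on 2 Agilent 2-colour arrays. The diet was labelled with Cy5 on array 1 and with Cy3 on array 2, and both comparisons share the FeA pool. As each diet is 1 pool, the spread between the arrays is technical, there is no measure of the variation among rats, and the diets were not tested. The comparison asks which ER genes differ in level when dietary iron is too low or too high.

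The pancreas makes more secreted protein than most organs, and its acinar cells are filled with rough ER in which digestive enzymes are threaded through the Sec61 channel, folded with the help of chaperones and disulphide isomerases, and checked before export. Proteins that fail to fold are drawn back out of the ER and degraded. When unfolded proteins build up, the sensors PERK (Eif2ak3), IRE1 (Ern1) and ATF6 start the unfolded protein response. IRE1 splices the RNA of Xbp1, whose product together with ATF6 switches on chaperone and degradation genes, while PERK slows protein synthesis and favours translation of ATF4, which switches on Ddit3 (CHOP), Trib3, Chac1 and Asns.

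A gene was called higher or lower when its mean log2 ratio of diet over FeA was at least 0.5 in size, a 1.41-fold difference, with the same sign on both arrays. This is a criterion of size and not a test. In FeD pancreas 3 of the 38 members were called lower (Trib3, Xbp1 and Derl3) and 0 higher, which is 7.89% of members lower against 0.934% of all 15735 genes measured in that comparison, with 1.72% of all genes higher. In FeO pancreas Derl3, Xbp1 and Trib3 were called lower and Chac1 higher, which is 7.89% of members lower against 2.0% of all 16432 genes, and 2.63% higher against 3.32%. At a log2 size of 1, 0 members were called in FeD, against 0.356% of all genes, and 2 in FeO (Chac1 and Derl3), against 1.08%. At a log2 size of 2, 0 members were called in either comparison, against 0.102% and 0.176% of all genes. The methods used that size together with a t-test and on values normalized in another way, so it is not the same threshold here. The other members stayed under the criterion: the median ratio over the 38 members was -0.11 in FeD and -0.12 in FeO, against 0.01 over all genes in both. With 1 probe or 2 per gene and bulk RNA, fewer cells of a type and less RNA per cell cannot be told apart in any of these values.

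**Figure D1:**
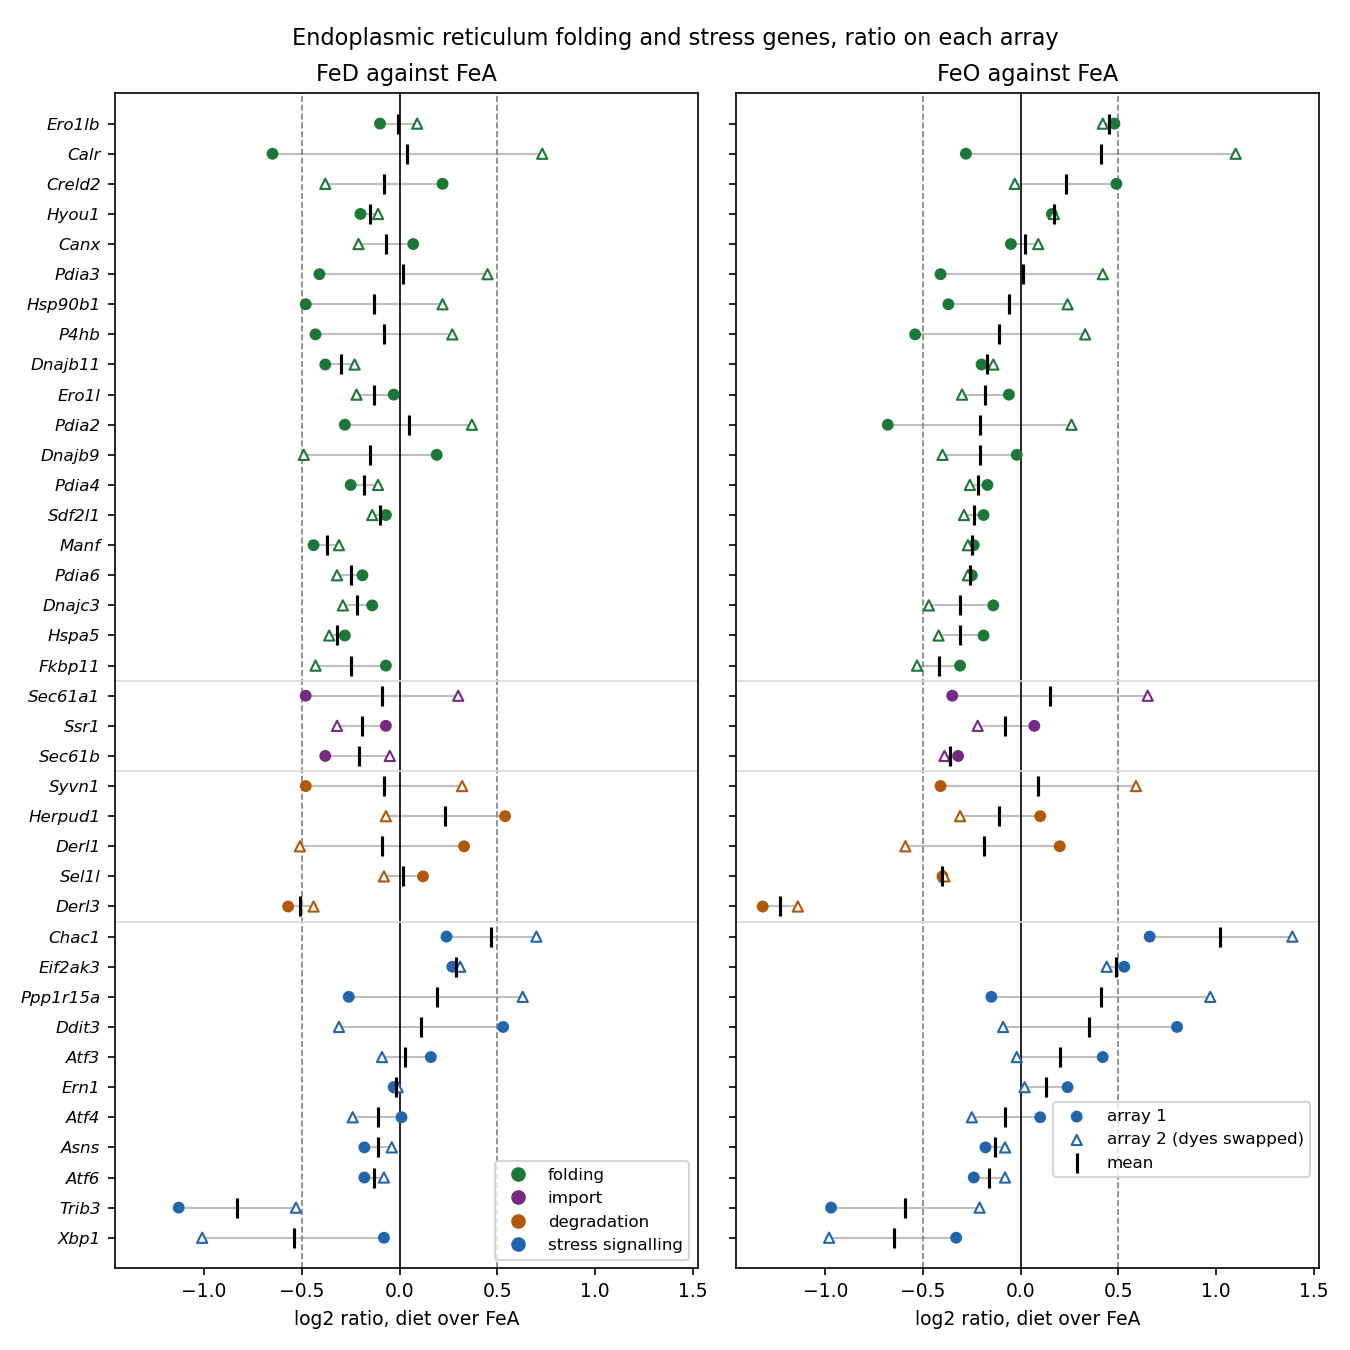
Log2 ratio of diet over FeA (horizontal axis) for the 38 measured members (vertical axis, grouped by class), in FeD (left) and FeO (right). Circles are array 1, open triangles array 2 with the dyes swapped, bars the mean of both and dashed lines the criterion of 0.5 in size. Derl3 lies furthest left in FeO at a mean of -1.23 and Chac1 furthest right at 1.02, whereas the folding genes stay between -0.42 and 0.45, several with their arrays on opposite sides of 0.

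Every member passed the filter on dim probes in both comparisons, and 42 of the 43 probes were well above background in all 8 channels. The exception was the probe of Ern1, which was not well above background in the FeD pool on array 2 and in the FeA pool on array 1 of the FeO comparison. None of the 43 probes was saturated. Per channel, the middle spot read 115 to 222.5 units over a local background of 50 to 87, and 61.9% to 71.5% of gene spots were well above background.

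The folding genes differed little between the pools. None of the 19 was called in either comparison, and their median ratio was -0.13 in FeD and -0.18 in FeO. In FeD, 10 of the 19 were below 0 on both arrays and 0 above, and in FeO 10 were below and 2 above (Ero1lb and Hyou1). Over all 38 members, 18 (47.4%) were below 0 on both arrays in FeD, against 21.7% of all genes, and 17 (44.7%) in FeO, against 24.2%. Above 0 on both arrays were 2 members in FeD, against 25.2% of all genes, and 5 in FeO, against 28.1%. Those counts depend on the normalization. With each array centred on its median in place of loess, 5 folding genes were below 0 on both arrays in FeD and 0 in FeO, with medians of -0.18 and -0.12. Over all 38 members, 9 were then below 0 on both arrays in FeD, against 12.3% of all genes, and 3 in FeO, against 14.9%. Above 0 on both were 2 in FeD, against 14.7%, and 8 in FeO, against 23.1%. The median over all members became -0.15 in FeD and 0.01 in FeO.

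Hspa5 encodes BiP, the main Hsp70 chaperone of the ER and the classical target of the unfolded protein response. Its probe read 7696 and 7350 intensity units in the FeD pool against 9331 and 9449 in FeA on the same arrays, and 8555 and 8090 in the FeO pool against 9774 and 10846 in FeA. Both diets were below FeA on every array, at -0.28 and -0.36 (mean -0.32) in FeD and -0.19 and -0.42 (mean -0.31) in FeO, short of the criterion. Under median centring the means were -0.39 and -0.15. Manf, a secreted ER protein that binds BiP, had the lowest folding ratio in FeD, reading 2558 and 2521 units against 3469 and 3116 in FeA (mean -0.37), and in FeO it read 3073 and 3043 against 3634 and 3657 (mean -0.25). Fkbp11, a prolyl isomerase of secretory cells, had the lowest in FeO with 5961 and 5340 units against 7371 and 7690 (mean -0.42), while in FeD it read 6804 and 5875 against 7131 and 7940 (mean -0.25).

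The partners of BiP lay in the same range. Dnajb11 and Dnajc3, J-domain proteins that deliver unfolded chains to BiP, had means of -0.30 and -0.22 in FeD and -0.17 and -0.31 in FeO. For Sdf2l1, which works with Dnajb11, the means were -0.10 and -0.24, with its 2 probes at -0.08 and -0.12 in FeD and at -0.34 and -0.14 in FeO. Dnajb9, another J-domain protein, was split by dye in FeD at 0.19 and -0.49, and gave -0.02 and -0.40 in FeO. Hyou1, the exchange factor that reloads BiP with ATP, stood apart: it was below FeA on both FeD arrays (-0.20 and -0.11) and above it on both FeO arrays (0.16 and 0.17). Its intensity on array 1 of the FeO comparison, 1127 units in FeO and 1011 in FeA, was below the 2230 to 2668 units of the other arrays in both channels, so that spot was dim as a whole while its ratio matched the swapped array.

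Several disulphide isomerases and lectin chaperones gave opposite signs on the dye-swapped arrays. Pdia2, the isomerase known for its expression in pancreas, had the highest folding ratio in FeD at a mean of 0.05, from 83531 and 109840 units against 101231 and 84853 in FeA, so the arrays pointed in opposite directions (-0.28 and 0.37). In FeO it read 68909 and 97844 against 110690 and 81930, at -0.68 and 0.26. P4hb, Pdia3, Hsp90b1 (GRP94) and Calr (calreticulin) showed the same split, below FeA on array 1 and above it on array 2 in both comparisons, with Calr the widest at -0.65 and 0.73 in FeD and -0.28 and 1.1 in FeO. By contrast Pdia6 was steady, at -0.19 and -0.32 in FeD and -0.25 and -0.27 in FeO, as was Pdia4 with means of -0.18 and -0.22. Canx (calnexin), a membrane-bound lectin chaperone, had means of -0.07 and 0.02, and Creld2, an ER-stress-inducible protein, -0.08 and 0.23.

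Of the oxidases that recharge the disulphide isomerases, Ero1l had means of -0.13 in FeD and -0.18 in FeO. Ero1lb, the form known from secretory cells of the pancreas, read 338 and 378 units in the FeD pool against 362 and 356 in FeA, with no common direction (-0.10 and 0.09). In the FeO pool it read 487 and 432 against 349 and 322, above FeA on both arrays (0.48 and 0.42), and its mean of 0.45 was the highest of the folding genes there. That value passed the criterion under median centring, under an offset of 0 and with the scanner software's processed signals.

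Many of these genes are known to carry an ER stress response element in their promoter, so the RefSeq promoters (assembly GRCr8, 250 bases before to 50 after the annotated start) were searched on both strands. Promoters were given for 31 of the 40 members. The ERSE was taken as CCAAT and CCACG with 9 bases of any kind between them, and it occurred in 9 of these 31 promoters and in 0.0657% of all 33469 promoters. The ERSE-II, ATTGG and CCACG with 1 base between, was in 3 members and 0.0508% of promoters, and the C/EBP-ATF element, TGATG and AA with 1 base between, in 3 members and 3.98%. No match of one motif overlapped a match of another in the members. The matches are descriptions of these letters and not measured binding sites. The stretches below, 10 bases on each side of a match, are shown because they hold an ERSE or, in Dnajb11 and Hyou1, an ERSE-II in folding genes, with the fixed letters of the motif in capitals, read along the strand of the gene.
Hspa5, chr3:38452963-38453001, plus strand: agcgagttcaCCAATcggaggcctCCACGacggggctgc
Hsp90b1, chr7:23012441-23012479, minus strand: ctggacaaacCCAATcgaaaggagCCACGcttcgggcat
Hsp90b1, chr7:23012337-23012375, minus strand: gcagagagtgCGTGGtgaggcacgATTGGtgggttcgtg
Calr, chr19:40213125-40213163, plus strand: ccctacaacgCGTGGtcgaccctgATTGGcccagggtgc
Dnajc3, chr15:102432524-102432562, plus strand: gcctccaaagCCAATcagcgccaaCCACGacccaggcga
Creld2, chr7:121789229-121789267, plus strand: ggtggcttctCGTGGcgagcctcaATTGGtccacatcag
Ero1lb, chr17:92941448-92941486, plus strand: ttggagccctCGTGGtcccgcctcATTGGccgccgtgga
Dnajb11, chr11:91672790-91672820, minus strand: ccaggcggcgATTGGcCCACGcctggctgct
Hyou1, chr8:53602684-53602714, plus strand: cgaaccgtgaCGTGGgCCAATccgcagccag
Hyou1, chr8:53602784-53602814, plus strand: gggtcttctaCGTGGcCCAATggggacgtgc
In the second stretch of Hsp90b1 and in Calr, Creld2, Ero1lb and Hyou1 the motif lies on the opposite strand, so its reverse complement is in capitals. Outside the folding class, Derl3 and Xbp1 hold an ERSE. Of the 9 genes with an ERSE, all but Calr had a mean below 0 in FeD, as did 73.7% of all measured members. Their means there ran from -0.54 to 0.04 (median -0.13), and the arrays of Calr were split at -0.65 and 0.73. In FeO the 9 genes did not share a direction, with means from -1.23 to 0.45 (median -0.06). The 20 measured members with a promoter and no ERSE had medians of -0.11 and -0.12.

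Of the import genes, none of 3 was called. Sec61b, the beta subunit of the import channel, was the lowest of them in both comparisons. It read 2523 and 2885 units against 3278 and 2986 in FeD (mean -0.21) and 2886 and 2545 against 3614 and 3342 in FeO (mean -0.36), below FeA on every array. Sec61a1, the pore-forming subunit, was split by dye with means of -0.09 and 0.15, from 215 and 279 units against 300 and 226 in FeD and 231 and 351 against 294 and 224 in FeO. For Ssr1, a subunit of the translocon-associated complex, the means were -0.19 and -0.08, and both of its probes had a mean below 0 in each comparison.

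Among the degradation genes, Derl3 was the member with the lowest ratio in FeO. Derlin-3 is one of the membrane proteins through which misfolded proteins leave the ER, and it is known from secretory cells and as a target of Xbp1. Its brighter probe, printed in 10 spots per array, read 2089 and 2134 units in the FeD pool against 3229 and 3310 in FeA, and 1240 and 1263 in the FeO pool against 3413 and 3387 in FeA. The FeA readings lay close together on all 4 arrays, the FeD readings lay below all of them and the FeO readings lay below those of FeD. The second probe read 411 and 470 against 586 and 561 in FeD and 268 and 293 against 607 and 533 in FeO, in the same order. Over both probes the ratio was -0.57 and -0.44 in FeD (mean -0.51, 1.42-fold lower) and -1.32 and -1.14 in FeO (mean -1.23, 2.35-fold lower). The FeD value sits at the edge of the criterion and fell short of it without array 1 (-0.44) and without background subtraction (-0.49). The FeO value passed the criterion under every other background correction, normalization, filter and choice of probe tried, and without either array.

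The promoter of Derl3 is shown because this gene had the lowest FeO ratio of the set. The ERSE, on the opposite strand, begins 154 bases upstream of the annotated start and is in capitals.
Derl3, chr20:12766416-12766715, minus strand: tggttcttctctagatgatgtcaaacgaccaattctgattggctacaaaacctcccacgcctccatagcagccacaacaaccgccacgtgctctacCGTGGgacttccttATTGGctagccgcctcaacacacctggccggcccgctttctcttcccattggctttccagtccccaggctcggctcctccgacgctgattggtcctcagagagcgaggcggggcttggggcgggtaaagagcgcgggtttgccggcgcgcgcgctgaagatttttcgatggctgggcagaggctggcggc

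Its partners in the degradation complex were lower in FeO to a lesser extent or split. Sel1l, the adaptor of the ubiquitin ligase Syvn1 (HRD1), was at 0.12 and -0.08 in FeD and at -0.40 and -0.39 in FeO (mean -0.40), and both of its probes were below FeA in FeO, at -0.48 and -0.31. In FeD the probes differed in sign, at -0.07 and 0.11. Herpud1, which recruits substrates to the ligase, had the highest ratio of the class in FeD, reading 7598 and 6138 units against 5238 and 6459 (0.54 and -0.07, mean 0.23), and in FeO 6107 and 3943 against 5696 and 4894 (mean -0.11). Syvn1 had the highest in FeO, reading 1370 and 1908 units against 1818 and 1264 (-0.41 and 0.59, mean 0.09), and 1214 and 1484 against 1691 and 1186 in FeD (mean -0.08). Derl1 was split at 0.33 and -0.51 in FeD and 0.20 and -0.59 in FeO. Thus only Derl3 and, in FeO, Sel1l had the same sign on both arrays in this class.

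**Figure D2:**
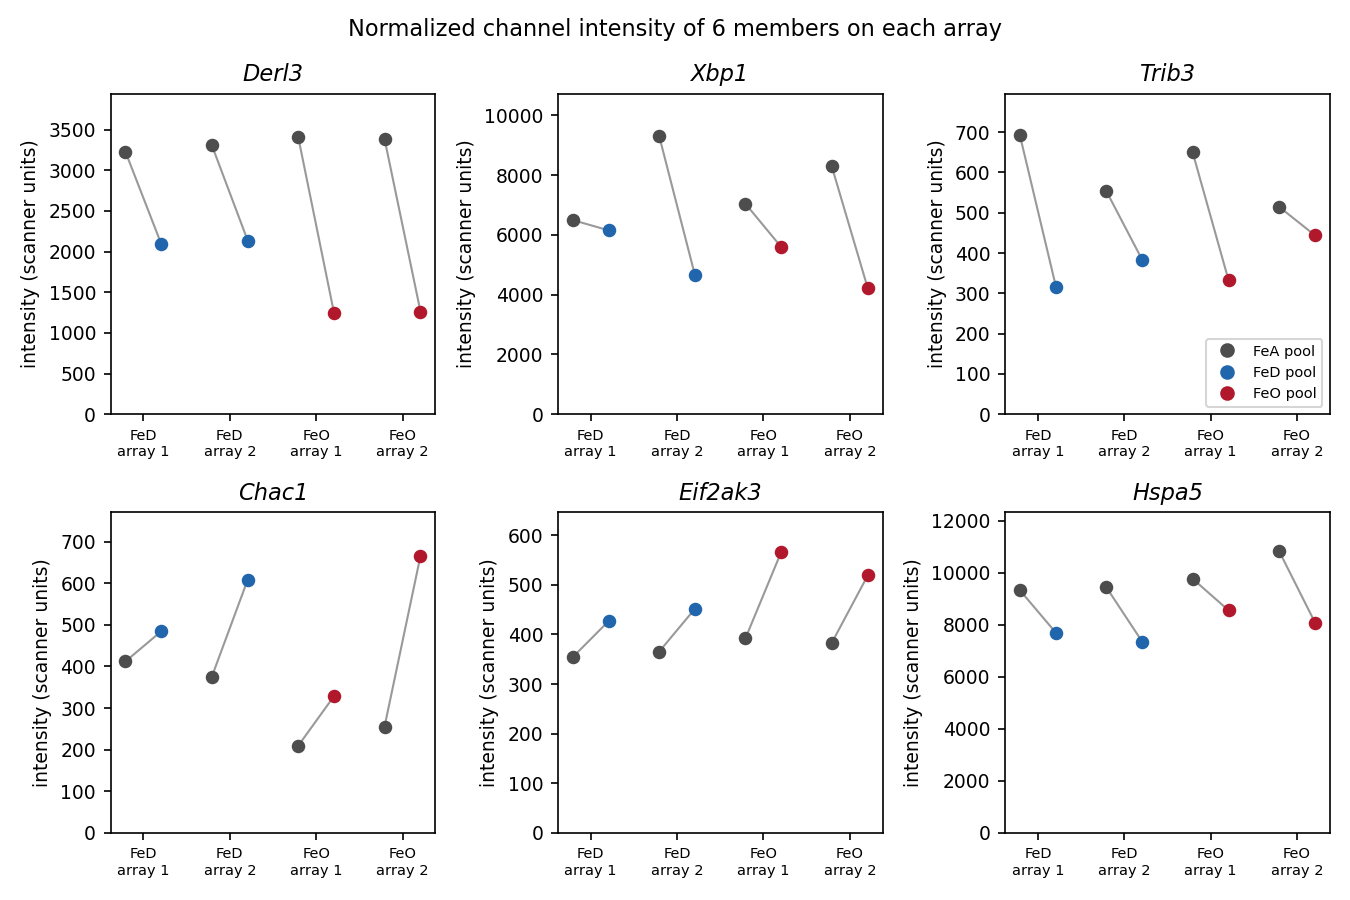
Normalized intensity in scanner units (vertical axis, from 0) of 6 members on each of the 4 arrays, with the FeA pool in grey and the diet pool of the same array in blue (FeD) or red (FeO). Derl3 is drawn by its 10-spot probe, whose FeA readings lie between 3229 and 3413 while FeD reads 2089 and 2134 and FeO 1240 and 1263. For Xbp1 the gap to FeA is wide on array 2 of each comparison and narrow on array 1.

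The mean ratios of the stress signalling genes ran from -0.83 to 0.47 in FeD and from -0.65 to 1.02 in FeO, with an SD over genes of 0.37 and 0.49, against 0.27 and 0.51 for the degradation genes. Their median was -0.02 in FeD and 0.13 in FeO, with 2 of 11 called lower in both comparisons and, in FeO, 1 called higher. Chac1, an enzyme that degrades glutathione and a target of ATF4, was the highest. It read 485 and 609 units in the FeD pool against 412 and 375 in FeA, and 329 and 666 in the FeO pool against 209 and 255 in FeA. Both diets were above FeA on every array, at 0.24 and 0.70 in FeD (mean 0.47, not called) and 0.66 and 1.39 in FeO (mean 1.02, 2.03-fold). The FeA readings themselves differed by 0.98 log2 units between the Cy3 channels of the FeD and FeO comparisons. The FeD value passed the criterion with an offset of 0 (0.52) and with processed signals (0.54).

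Trib3, a pseudokinase that is also an ATF4 target and restrains ATF4 and Akt, went the other way. It read 317 and 383 units in the FeD pool against 692 and 554 in FeA, and 332 and 444 in the FeO pool against 650 and 515. Every array was below FeA, at -1.13 and -0.53 in FeD (mean -0.83, 1.78-fold lower) and -0.97 and -0.21 in FeO (mean -0.59, 1.51-fold lower). In FeO the call rests on array 1, since array 2 alone gave -0.21.

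Xbp1 encodes the transcription factor of the IRE1 branch, which acinar cells need for their ER. It read 6149 and 4642 units in the FeD pool against 6495 and 9322 in FeA, and 5586 and 4217 in the FeO pool against 7042 and 8290. The ratios were -0.08 and -1.01 in FeD (mean -0.54, 1.46-fold lower) and -0.33 and -0.98 in FeO (mean -0.65, 1.57-fold lower). Both calls rest on array 2: without it the values were -0.08 and -0.33, and under median centring the mean stayed low (-0.62 and -0.52) but the arrays had opposite signs. Spliced and unspliced Xbp1 RNA were not told apart here.

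The promoters of these 3 genes are shown because they carry the elements of the separate branches: an ERSE that begins 65 bases upstream of the start in Xbp1, and a C/EBP-ATF element on the opposite strand 167 bases upstream in Chac1 and 21 bases upstream in Trib3. Fixed letters of the motifs are in capitals.
Xbp1, chr14:84604373-84604672, plus strand: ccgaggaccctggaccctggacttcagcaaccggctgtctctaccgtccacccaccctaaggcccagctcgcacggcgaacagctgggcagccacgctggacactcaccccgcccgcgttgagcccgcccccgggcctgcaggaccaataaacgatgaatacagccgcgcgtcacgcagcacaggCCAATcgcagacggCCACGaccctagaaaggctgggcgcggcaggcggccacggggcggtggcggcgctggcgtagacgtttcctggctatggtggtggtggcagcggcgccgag
Chac1, chr3:126795881-126796180, plus strand: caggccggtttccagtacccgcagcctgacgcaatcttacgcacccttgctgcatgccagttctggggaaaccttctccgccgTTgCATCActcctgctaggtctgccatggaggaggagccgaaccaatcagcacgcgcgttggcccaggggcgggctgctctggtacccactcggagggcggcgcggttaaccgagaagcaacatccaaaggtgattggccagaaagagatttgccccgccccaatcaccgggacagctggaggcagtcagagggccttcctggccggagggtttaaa
Trib3, chr3:161275484-161275783, minus strand: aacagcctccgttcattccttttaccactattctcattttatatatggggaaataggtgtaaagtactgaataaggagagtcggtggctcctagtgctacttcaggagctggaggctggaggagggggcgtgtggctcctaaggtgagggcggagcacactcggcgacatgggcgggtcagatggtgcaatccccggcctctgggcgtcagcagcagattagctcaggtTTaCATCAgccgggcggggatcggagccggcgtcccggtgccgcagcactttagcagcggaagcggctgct
Chac1 and Trib3, which both hold the C/EBP-ATF letters, had ratios of opposite sign in each comparison. Herpud1, the remaining member with those letters, holds an ERSE-II as well.

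Of the sensors, Eif2ak3 (PERK) was above FeA on every array. Its 10-spot probe read 427 and 452 units in the FeD pool against 354 and 365 in FeA, and 567 and 519 in the FeO pool against 392 and 383. The ratios were 0.27 and 0.31 in FeD (mean 0.29) and 0.53 and 0.44 in FeO (mean 0.49), which passed the criterion in FeO under median centring (0.53), an offset of 0 (0.53) and processed signals (0.58). Ern1 (IRE1) read 85 to 105 units, near the background, with means of -0.02 and 0.13, and Atf6 had means of -0.13 and -0.16. The 2 probes of Atf6 differed in FeO. The brighter, at 375 to 476 units, gave -0.17 in FeD and -0.31 in FeO. The other, at 91 to 119 units, gave -0.09 in FeD and -0.01 in FeO, where its arrays were split at -0.19 and 0.18.

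Of the remaining effectors, all but Asns gave opposite signs on the swapped arrays in both comparisons. Ddit3 (CHOP) was at 0.53 and -0.31 in FeD and 0.80 and -0.09 in FeO, and Ppp1r15a (GADD34), which reverses the block on translation, at -0.26 and 0.63 and at -0.15 and 0.97. Atf3 had means of 0.03 and 0.20 and Atf4 of -0.11 and -0.08, although ATF4 is known to be set largely at the level of translation. Asns, the asparagine synthetase driven by ATF4, was at -0.18 and -0.04 in FeD and -0.18 and -0.08 in FeO. None of these 5 was called.

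The other genes of the pathway were taken from 6 lists of 165 genes, of which few were called. Of 26 further ER folding enzymes measured, 1 was called lower in each comparison: Pdia5, a disulphide isomerase, at -0.98 and -0.49 in FeD (mean -0.74) and -0.87 and -0.42 in FeO (mean -0.65). Ppib, the cyclophilin that the study used as its reference transcript for PCR, had ratios of -0.07 and 0.00 in FeD and -0.04 and 0.04 in FeO. Of 29 further genes of import and N-glycosylation, 0 were called, yet their median was -0.17 in FeD and -0.18 in FeO. All 29 had a mean below 0 in FeD, against 47.0% of all genes. On both arrays 17 of them (58.6%) were below 0, against 21.7% of all genes. These counts are given with loess only. Under median centring the medians were -0.22 and -0.09.

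The genes of glycan quality control and degradation had medians of -0.05 and -0.04, with Erlec1, a lectin of the degradation pathway, called lower in FeO (mean -0.54, against -0.47 in FeD). ER to Golgi transport genes had medians of -0.13 and 0.05 and other regulators of the unfolded protein response -0.02 and -0.01, with 0 called in either list. Most calls fell in the list of amino acid and integrated stress response genes, where 2 of 33 were called higher in FeD (6.06%) and 6 of 33 in FeO (18.2%), against 1.72% and 3.32% of all genes. The highest were Cth, which makes cysteine from cystathionine, at 0.70 in FeD and 1.13 in FeO, Slc7a11, the cystine importer, at 0.55 and 0.70, and Fgf21, a hormone, at 0.13 and 0.91. The median of the list was 0.06 in FeD and 0.08 in FeO, so most of its genes were near 0.

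**Figure D3:**
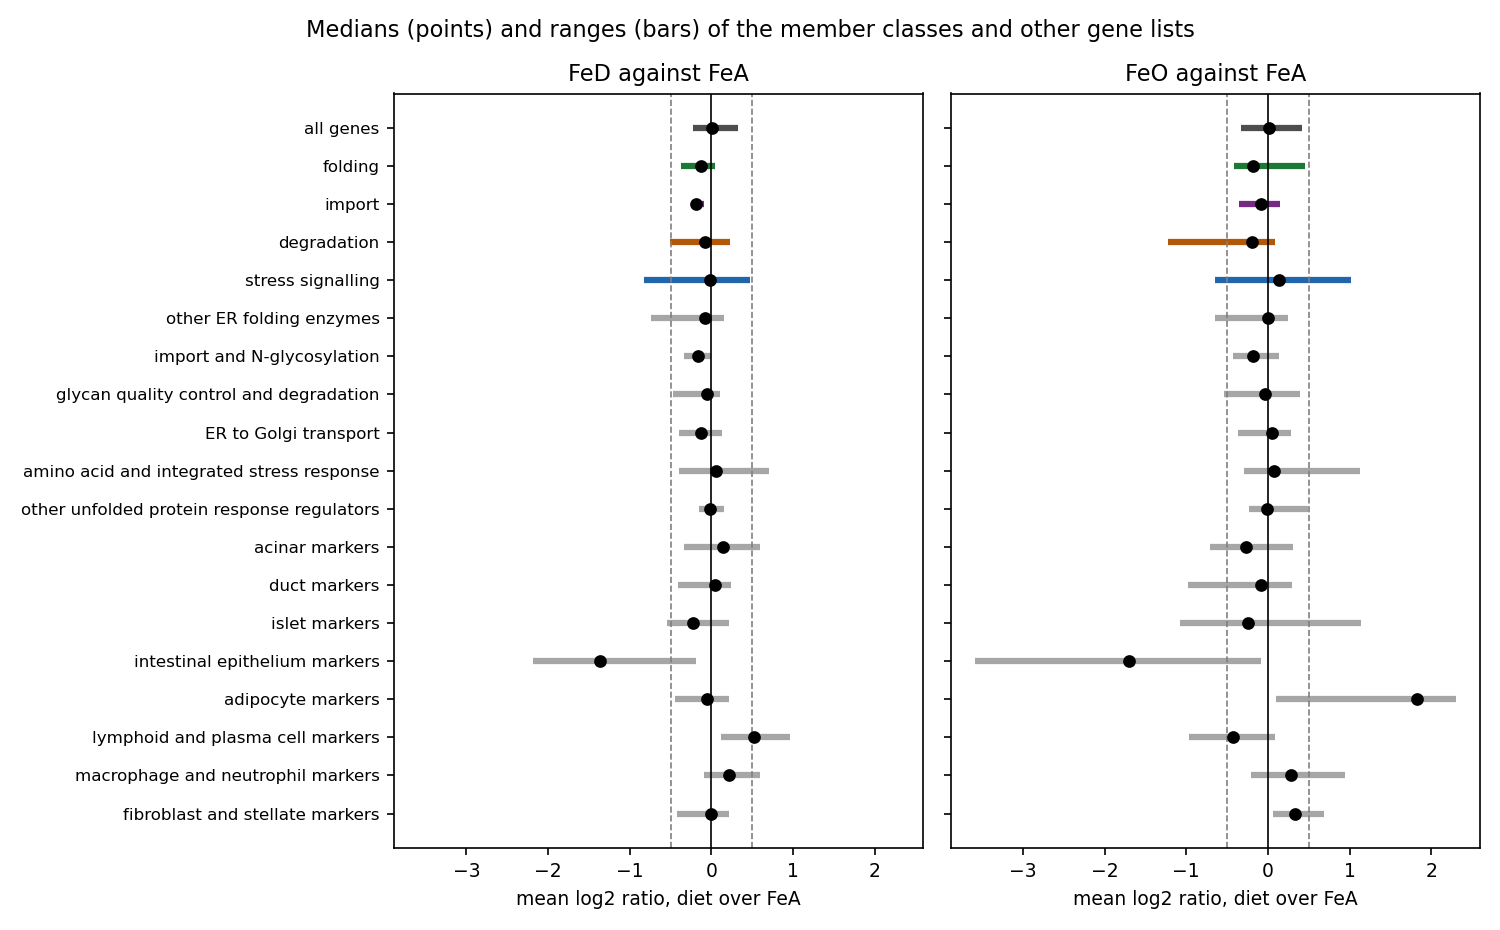
Median (point) and range (bar) of the mean log2 ratio of diet over FeA for the 4 classes, 6 further ER and stress lists and 8 cell type marker lists, in FeD (left) and FeO (right). The bar of all genes spans the 5th to the 95th percentile. The intestinal epithelium markers lie at medians of -1.37 and -1.70 and the adipocyte markers at 1.83 in FeO, whereas the medians of the ER classes stay between -0.19 and 0.13.

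Markers of several cell types differed between the pools as well. Acinar markers, of which all 21 on the array were well above background in the FeD comparison, had a median of 0.14 in FeD with 4 called higher, but 0 were called under median centring (median 0.09) and 1 with processed signals (0.10). In FeO only 14 could be used, since 7 of the 21 had a spot marked as an outlier, and the median was -0.27 with 3 called lower. Under median centring it was 0.11, so the direction of the acinar markers in FeO is not settled. Their summed intensity over 15 probes, 12 of the 21 genes being saturated in a channel, was 3453357 and 3122329 units in FeD against 2844528 and 3207338 in FeA, and 2883909 and 2718238 in FeO against 3150210 and 3655773.

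Adipocyte markers were called higher in FeO for 7 of 9 genes (median 1.83, Cfd 2.30 and Car3 2.14), with a summed intensity of 40828 and 39845 units against 12223 and 11242 in FeA. Lymphoid and plasma cell markers were called higher in FeD for 6 of 11 (median 0.52) and lower in FeO for 3 of 10 (median -0.43). Their summed intensity was 5370 and 5276 units in FeD against 3554 and 3372, and 2346 and 2619 in FeO against 3519 and 3609, and of the 12 genes on the array 11 were well above background in FeD and 6 in FeO. Intestinal epithelium markers were lower for 9 of 11 in FeD and 8 of 11 in FeO, Agr2 among them, itself a disulphide isomerase of mucous cells, at -1.65 and -1.70. Their summed intensity was 3304 and 3481 units in FeD against 8022 and 7874, and 2731 and 3028 in FeO against 7825 and 8000, and all 11 were well above background in FeA but 7 in FeD and 8 in FeO. Islet markers were called lower in FeO for 5 of 13 genes, among them Ppy (-1.08), Iapp (-1.02) and Ins1 (-0.81), while Gcg, the glucagon gene, was higher (1.14), and the list median was -0.25. In FeD only Iapp was called (-0.55, list median -0.22). The summed intensity of the islet markers was 164640 and 177959 units in FeD against 239677 and 203745, and 126903 and 144009 in FeO against 253433 and 219753. Duct markers were called lower in FeO for 3 of 9 genes (Krt19 -0.98, Spp1 -0.88 and Krt18 -0.78), with 14668 and 13488 summed units against 23601 and 21527, and for 0 in FeD. The duct list did not share a direction in FeO. Its median was -0.08, with 5 means below 0 and 4 above, the highest in Onecut1 (0.30) and Cftr (0.29). Fibroblast and stellate markers were called higher in FeO for 3 of 9 (Col3a1 0.69, Vim 0.66 and Col1a1 0.61), with 23525 and 25586 units against 18403 and 16496, and for 0 in FeD. Macrophage and neutrophil markers were called higher for 2 of 9 in FeO (Cd163 0.95 and Cd14 0.94) and 1 of 7 in FeD (Lyz2 0.60). Their list medians were 0.28 in FeO and 0.22 in FeD, and Lyz2 was split in FeO at 0.19 and -0.62. Their summed intensity was 18266 and 15538 units in FeD against 11071 and 12936. In FeO it was split between the arrays, at 6610 and 10465 against 5336 and 13519. The part of these cell types in the values of Derl3, Xbp1, Trib3 and Chac1 was not tested.

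The FeO and FeD pools were not hybridised together. They were compared through FeA by taking the FeO ratio minus the FeD ratio on the arrays that carry the diet in the same dye, so that a dye effect common to both drops out, a comparison chosen after seeing the data. By the criterion, Chac1 was called higher in FeO (0.42 and 0.68, mean 0.55) and Derl3 lower (-0.75 and -0.70, mean -0.72). For Chac1 the FeO pool itself read 329 and 666 units and the FeD pool 485 and 609. The FeA readings of Chac1 were 209 and 255 on the FeO arrays and 412 and 375 on the FeD arrays. On the first pair its sign thus rests on the division by FeA. Chac1 fell short of the criterion on the first pair alone (0.42) and without background subtraction, whereas Derl3 passed it under every alternative tried to background, normalization, filter and probe choice and on either pair. Each is 2.63% of the members, against 2.16% of all 15252 genes called higher and 2.28% lower. At log2 sizes of 1 and 2, 0 members were called, against 0.99% and 0.125% of all genes. At a median of 0.02, the members as a whole lay near the 0.00 of all genes, or at 0.20 under median centring.

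The classes differed in this comparison. Of the 11 stress signalling genes, 7 were above 0 on both pairs of arrays and 0 below, with a median of 0.16, whereas 4 of the 5 degradation genes were below 0 on both pairs, with a median of -0.34. Under median centring, 9 signalling genes were above 0 on both pairs (median 0.27), but only Derl3 and Sel1l of the degradation genes were below (median -0.14). Without background subtraction and with processed signals, 2 signalling genes were below 0 on both pairs. Over all genes, 34.9% were above 0 on both pairs and 32.9% below. Besides Derl3, the lower degradation genes were Sel1l (-0.52 and -0.31, mean -0.42), Herpud1 (-0.44 and -0.24, mean -0.34) and Derl1 (-0.13 and -0.08). Besides Chac1, the higher signalling genes were Trib3 (mean 0.24), Ddit3 (0.24), Ppp1r15a (0.22), Eif2ak3 (0.20), Atf3 (0.16) and Ern1 (0.15). Xbp1 had no common direction, at -0.26 and 0.03.

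Among the folding genes, Calr and Creld2 gave opposite signs on the swapped arrays against FeA and close values here. Calr, at -0.65 and 0.73 in FeD, differed between FeO and FeD by 0.37 on both pairs, and Creld2, at 0.22 and -0.38 in FeD, by 0.27 and 0.35 (mean 0.31). The SD of the 2 values was smaller here than in both comparisons with FeA for 25 of the 38 members, with a median of 0.11 log2 units against 0.19 in FeD and 0.22 in FeO, while for the other 13, Canx and Ero1lb among them, it was not. The share of all genes with a smaller SD is not given here. Opposite signs were also less frequent here over all genes, at 32.2% against 53.1% in FeD and 47.8% in FeO. This closeness is therefore not a trait of the members. Ero1lb was higher in FeO by 0.58 and 0.34 (mean 0.46) and Hyou1 by 0.35 and 0.29 (mean 0.32), while Hspa5 had no common direction (0.09 and -0.06). Of the 19 folding genes, 7 were above 0 on both pairs and 4 below, and none was called. Under median centring the class median was 0.19 in place of -0.01, and 0 were below on both pairs.

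**Figure D4:**
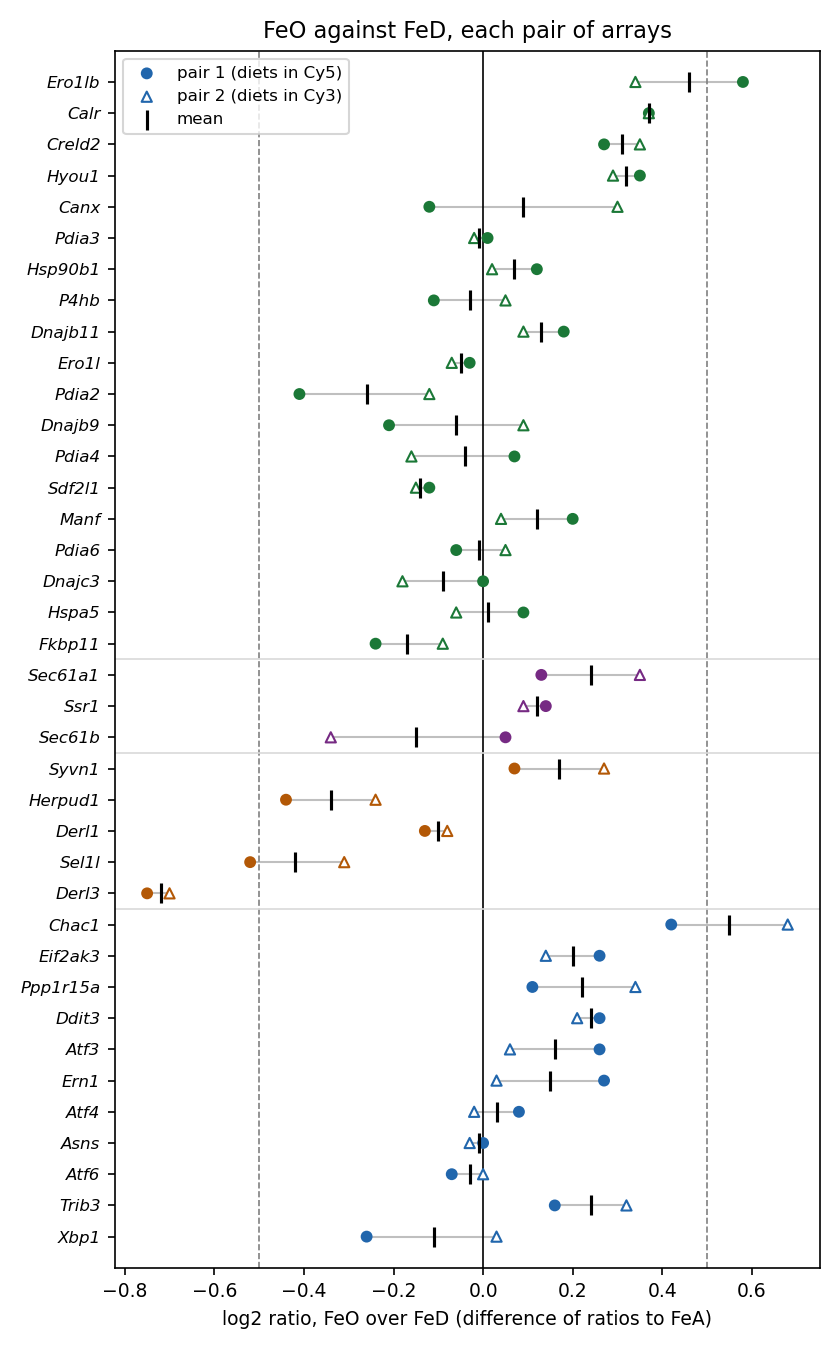
Log2 ratio of FeO over FeD (horizontal axis), taken as the difference of the ratios to FeA, for the 38 members in the same order and colours by class (vertical axis). Circles are the pair of arrays with the diets in Cy5, triangles the pair with the diets in Cy3, bars the mean and dashed lines the criterion of 0.5 in size. Derl3 (-0.72) and Chac1 (0.55) lie past the criterion, and for 25 of the 38 members the 2 pairs lie closer together than the swapped arrays do in either comparison with FeA, for example at 0.37 in both pairs for Calr. A dye effect common to both comparisons drops out here by construction, for any gene.

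The size of the dye effect was read from the swapped arrays, as the part of the ratio that changes sign with the dye, which is the difference of the 2 arrays divided by 2. It was larger than the mean ratio for 18 of 38 members in FeD and 16 in FeO, against 53.1% and 47.8% of all genes. With 2 arrays this holds exactly where their signs are opposite, so it counts the same genes. That part also holds the noise between the arrays and not the dye alone. Its sign was the same in both comparisons for 30 of 38 members. From one comparison to the other it changed by a median of 0.08 and at most 0.21 log2 units. These values over all genes are not given here. Between arrays, the FeA readings of the 43 member probes differed with an SD of 0.34 log2 units in Cy3 and 0.16 in Cy5, against 0.36 and 0.31 for all probes.

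Tests were run only as a description of this technical error, since they compare 2 pools of RNA and not the diets. Limma on the 2 arrays of a comparison, with Benjamini-Hochberg adjustment, called 0 of the 43 member probes in FeD (0.582% of all probes) and 1 in FeO, the 10-spot probe of Derl3 (0.835%), and at an unadjusted threshold 6 (6.09%) and 10 (8.81%). The methods' t-test was run here unpaired, on 2 diet against 2 FeA channel intensities, so it ignores that the channels of an array share a spot. The methods do not say whether theirs was paired. It called 6 probes in FeD (6.23% of all probes) and 9 in FeO (7.96%) unadjusted, and 0 in both after adjustment (0.00571% and 0.0%). A limma fit with a dye term over all 4 arrays, added after seeing the data, called 13 member probes in FeD (14.4% of all probes), 23 in FeO (27.8%) and 7 in FeO against FeD (10.4%), the last in Calr, Chac1, Derl3, Ero1lb and Sel1l. The dye term itself was called for 21 of the 43 member probes and 37.7% of all probes.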

How the data were processed

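Intensity values were deposited by the authors as Agilent Feature Extraction 10.1.1.1 gave them, per the file headers. The uncorrected medians of each spot and its surrounding background were used here, with the software's corrected and dye-normalized signals as an alternative. The log10 ratio of red over green processed signal, the log2 fold changes and the p-values and q-values that the authors also deposited were not used. From the authors' tables only the probe symbols were used.

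In R 4.3.3 with limma 3.58.1, background was corrected by normexp (offset 50), control and outlier spots had weight 0 in loess within each array and were left out afterwards, spots of a probe were averaged, and log2 ratios were turned to diet over FeA and averaged over 2 arrays. Channel intensities were read after Aquantile normalization. Names came from the deposited symbol of 22949 probes, otherwise from the accession of the probe. A probe entered a comparison when it was well above background (over 50% of its spots) on both arrays in at least 1 diet, and probes of a gene were averaged. No test of the diets was made. Dye swaps repeat the same RNA, so the 2 arrays count as 1 replicate, all 4 share 1 slide and scan per the file headers, and the number of arrays limits the precision.

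The members and the gene lists were chosen with earlier results of these data known. All members may be named. Values in every channel are given for called members and the extremes of each class, and other lists are named by their called genes, at most 3 per direction. Hspa5, Hyou1 and Eif2ak3 were given in full after their values were seen. Alternatives changed the background correction, normalization, filter, probe choice, size and test (the methods' t-test and limma), or left out an array. FeO against FeD and limma with a dye term were added after seeing the data. The steps were tested on simulated data. One promoter stretch is not reported here. Summaries used Python 3.11.15 with pandas 2.3.3 and numpy 2.4.6.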

Additional observations from a re-analysis of the deposited data

Results flagged for a closer look

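For Hyou1, both FeD arrays lay below FeA (mean log2 ratio -0.15) and both FeO arrays above it (mean 0.17), a difference of 0.32. Ern1 did the same with a smaller difference of 0.15, from means of -0.02 and 0.13, and its probe was near the background in both comparisons. These 2 were picked out because every array of one diet lay on the other side of FeA from every array of the other diet. Ern1 met this rule narrowly, at -0.03 and -0.01 in FeD and 0.24 and 0.02 in FeO. The share of all genes that meet the rule is not given here, so the 2 say nothing about the set. Neither difference was tested between diets, each of which is 1 pool.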

How the results depend on the processing

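The count of members called was 3 in FeD, 4 in FeO and 2 in FeO against FeD. On 1 array alone the criterion asks for no second array. There the count was 5 to 6 in FeD, against 4.7% to 6.88% of all genes. In FeO it was 7 to 9, against 6.37% to 12.4%. At a log2 size of 1 it was 0, 2 and 0, and at a size of 2 it was 0 in each. For FeO against FeD it was 1 without background subtraction, where Chac1 was lost, against 3.9% of all genes. With processed signals it was 4, against 11.5% of all genes.

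By tests that compare the 2 pools by technical error only, the methods' t-test called 6 members in FeD and 8 in FeO unadjusted and 0 in both after Benjamini-Hochberg adjustment. Limma on 2 arrays called 0 in FeD and 1 in FeO (Derl3) after adjustment, and 5 and 9 unadjusted. Limma with a dye term on 4 arrays called 12, 21 and 5 after adjustment, with 14.4%, 27.8% and 10.4% of all probes.

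The median over the members was -0.11 in FeD, -0.12 in FeO and 0.02 in FeO against FeD. Median centring gave -0.15, 0.01 and 0.20. On 1 array it ran from -0.16 to -0.11, from -0.18 to -0.12 and from 0.04 to 0.07. The cause of these shifts was not tested. The remaining background, normalization, filter and probe choices gave 2 to 4 members called in FeD, 4 to 6 in FeO and 2 to 3 in FeO against FeD, and medians of -0.12 to -0.10, -0.13 to -0.12 and 0.01 to 0.04. Over the settings of these counts, 1.52% to 7.96% of all genes were called in FeD and 3.15% to 13.8% in FeO. In FeO against FeD the share was 2.66% to 9.21%. The largest shares in FeD and FeO came with processed signals, where 4 and 6 members were called. None of the tabulated gene values that was called turned direction. Aquantile leaves a ratio within an array as it is by construction.

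No paired analysis was possible because the swapped arrays repeat the same RNA, so their numbers pair no animals. The probe of Ern1 was near the background. The values are further limited by 1 pool per diet and 1 or 2 probes per gene. The swapped arrays had opposite signs for 18 of 38 members in FeD and 16 in FeO, against 53.1% and 47.8% of all genes, the same counts as those given with the dye effect.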
